A study of Mus musculus with 4 samples.

Results

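The genes described here are 42 centrosome and centriole genes, found by symbol among the 51905 genes of the deposited tables. Each symbol had 1 row, and all 42 passed a filter on low counts, namely a mean of 10 or more deposited counts over the libraries of each line, as did 11928 genes in all. They were divided by role into centriole duplication (12 genes), pericentriolar material and satellites (8 genes), appendages, linker and cilium (7 genes), the gamma-tubulin complex (7 genes) and augmin (8 genes). RNA was sequenced from CT26 and MC38 cells, transplantable mouse colorectal cancer lines, after lentiviral infection with a short hairpin that targets GFP (lenti-shGFP, used as control) or mouse Aurora-A (lenti-shmaurka-1). All 4 libraries came from infected cells of genotype WT, and, per the study's methods, infected cells were selected with puromycin and passaged before use. RNA was harvested 48 h after seeding. There was 1 library for each combination of line and hairpin, and 1 hairpin against Aurora-A, so differences within a line are unreplicated, and effects of the hairpin sequence and of Aurora-A loss cannot be told apart. The lines were grown in different media, so line and medium cannot be told apart either.

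The centrosome is the main microtubule-organizing centre of animal cells. A pair of centrioles, each copied during S phase under the kinase Plk4, is surrounded by pericentriolar material that anchors gamma-tubulin ring complexes, the templates from which microtubules grow. Augmin brings the same ring complexes to the sides of existing spindle microtubules. Aurora-A is the kinase that drives maturation of the centrosome before mitosis, and it is also known for promoting loss of the primary cilium, for which the older centriole serves as base. Many centrosomal proteins are regulated by phosphorylation and degradation, so a transcript level says little about protein at the centrosome.

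The libraries held 22207768 to 23752269 fragments. Aurka, the targeted gene, had 5724 fragments in the CT26 control and 1093 in the CT26 knockdown (log2 fold change -2.27), and 2300 and 413 in the MC38 libraries (-2.45). Markers of the labelled cell types were read from all 4 libraries. CT26 is labelled fibroblast, and all 9 fibroblast and mesenchymal markers had more than 3 fragments in each library. The 9 epithelial markers summed to 43.0 FPKM in CT26 shGFP, nearly all of it from Krt18 (33.7 FPKM) and Krt20 (8.45 FPKM). MC38 is labelled epithelial, but Epcam had at most 1 fragment and Cdh1 at most 6 in any library. Vil1 had 38 and 29 fragments in MC38 shGFP and shmaurka-1, and Krt8 22 and 18. The summed epithelial level of 9 markers was 1.24 FPKM in MC38 shGFP, of which Vil1 gave 0.58. The 9 mesenchymal markers summed to 603 FPKM there, mostly from Vim (291 FPKM) and Fn1 (227 FPKM). Leukocyte markers summed to at most 0.198 FPKM.

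By scaled counts with 1 added, no centrosome or centriole gene passed the fold thresholds of the study, above 1.5-fold or below 0.6-fold, in either line. The count was 0 of 42 in each direction, beside 3.2% of all genes compared above 1.5-fold and 2.58% below 0.6-fold in CT26, and 2.47% and 1.03% in MC38. Haus6, Stil and Odf2 came nearest, at 1.495-, 1.482- and 1.477-fold in CT26. By the plain ratio of deposited FPKM, Haus8 and Crocc were above 1.5-fold in CT26, at log2 ratios of 0.61 and 0.59. The changes described below are therefore small, and each is given with a 95% exact interval on the fragments of the 2 libraries compared. These intervals cover counting error only and say nothing of the spread between cultures. They ranged in width from 0.16 to 1.14 on the log2 scale in CT26 and from 0.10 to 1.31 in MC38.

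Within that range the genes leaned in opposite directions in the lines. In CT26, 31 of the 42 were higher with shmaurka-1 by any amount, beside 49.1% of all genes, and the median log2 fold change was 0.11 against -0.01 over all genes. In MC38, 30 of the 42 were lower and 12 higher, beside 50.1% and 49.9% of all genes, and the median log2 fold change was -0.06 against -0.00071 over all genes. Counting only genes whose interval excluded no change, 17 were higher and 2 lower in CT26, beside 22.1% and 21.1% of all genes, and 6 were higher and 14 lower in MC38, beside 22.7% and 22.3%. The depth behind these intervals differed between the lines. The median of the 42 genes was 613 and 542 fragments in CT26 shGFP and shmaurka-1, against 729 and 663 for all genes, and 1122 and 996 in MC38, against 881 and 859. The direction of the median over the 42 genes was the same under each of the other scalings, with the deposited FPKM, and in the 19 genes that had a locus of their own, but there only 11 of 19 were higher in CT26, with a median of 0.07, and 12 of 19 lower in MC38. The other 23 share a locus in the files, and for 12 of them (Sass6, Cep63, Cdk5rap2, Ofd1, Cep290, Ninl, Tubgcp2, Tubgcp4, Tubgcp6, Haus2, Haus5 and Haus8) another gene there had over 5% of their fragments in some library, so these values are uncertain.

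**Figure D1:**
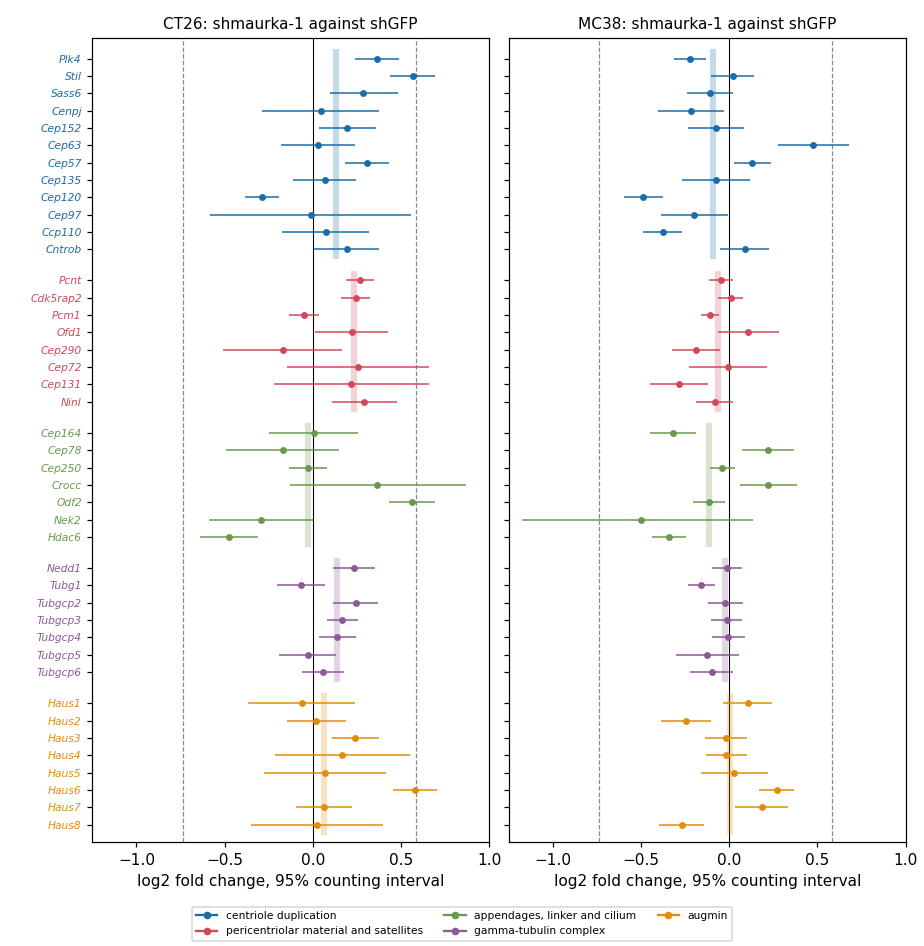
The log2 fold change of each gene (shmaurka-1 against shGFP, points) with its 95% counting interval (bars) is plotted for CT26 on the left and MC38 on the right, coloured by group, with pale vertical bars at the group medians and dashed lines at 1.5-fold and 0.6-fold. No point lies beyond a dashed line, and most points lie right of 0 in CT26 and left of it in MC38.

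The difference between the lines was measured gene by gene as the MC38 log2 fold change minus that of CT26. It was below 0 for 37 of the 42 genes, with a median of -0.19 against 0.0043 over all genes. With that median above 0, the genes below 0 were no majority of all genes, but their share was not computed. Its interval lay below 0 for 20 genes and above 0 for 2, beside 19.4% of all genes in each direction. Both intervals excluded no change, higher in CT26 and lower in MC38, for 2 genes (Plk4 and Odf2), beside 3.84% of all genes, and the reverse held for 0, beside 3.6%. Both were above 0 for 2 (Cep57 and Haus6), beside 8.58%, and both below 0 for 2 (Cep120 and Hdac6), beside 7.49%. With 1 library per condition these differences have no test across samples. Across the 42 genes, the changes in CT26 and MC38 were correlated at r = 0.44 (Pearson) and rho = 0.41 (Spearman), against 0.17 and 0.17 across all genes. Genes share the 4 libraries and are not independent of each other. Genes that were higher relative to the others in CT26 thus tended to be so in MC38 also, although the medians had opposite signs.

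**Figure D2:**
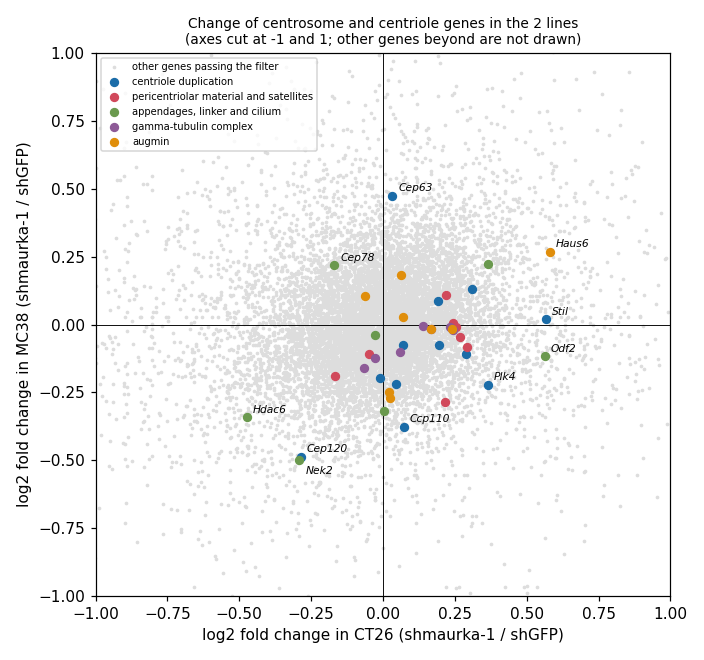
Each point is a gene, with its log2 fold change in CT26 on the horizontal axis and in MC38 on the vertical axis, on axes limited to -1 and 1. Coloured points are the 42 genes by group and grey points the other genes that passed the filter; Haus6 lies at the upper right, Hdac6, Cep120 and Nek2 at the lower left, and Plk4 and Odf2 at the lower right.

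With 1 pair of libraries in each line, an effect common to both was tested over all 11928 genes (edgeR, quasi-likelihood, blocked on the line, Benjamini-Hochberg adjusted). It called 3 of the 42 genes, Haus6 higher and Cep120 and Hdac6 lower, beside 1.67% of all genes called higher and 1.12% called lower. The test has 1 residual degree of freedom and sets the spread of a gene by the trend fitted to the rest. DESeq2's Wald test with the same model called 0 of the 42, and called 0.243% of all genes. At an unadjusted p under 0.05 DESeq2 had 3 of the 42 (7.14%), beside 4.17% of all genes, and edgeR 4 (9.52%), beside 12.3%. The edgeR calls were also lost when only genes with a mean of at least 50 counts were tested, where the smallest adjusted p of edgeR among the 42 was 0.097.

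Haus6 encodes a subunit of augmin (ENSMUSG00000038047, chromosome 4, 86578854 to 86612055 in GRCm38). It had 912 fragments in the CT26 control and 1255 in the CT26 knockdown, and 1515 and 1789 in the corresponding MC38 libraries. Both knockdown libraries were above their own control. In CT26 the log2 fold change came to 0.58 (95% interval 0.46 to 0.71), and in MC38 to 0.27 (0.17 to 0.37), and the common log2 fold change was 0.42 with an adjusted p of 0.0144 in edgeR. Over the other settings its adjusted p ranged from 0.015 to 1. By the deposited FPKM, which is scaled to transcript length, the log2 ratios were 0.42 in CT26 and 0.38 in MC38.

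Hdac6, a cytoplasmic deacetylase of alpha-tubulin that acts with Aurora-A in disassembly of the cilium (ENSMUSG00000031161, chromosome X, 7930119 to 7947889), fell in the same test. It had 761 fragments in the CT26 control and 504 in the CT26 knockdown, and 2075 and 1605 in MC38. At -0.47 its log2 fold change in CT26 (95% interval -0.64 to -0.31) was the lowest of the 42 genes in that line, and in MC38 it was at -0.34 (-0.44 to -0.25). The common log2 fold change was -0.40, with an adjusted p of 0.0338 in edgeR and 0.0189 to 1 over the other settings.

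Cep120, a daughter-centriole protein needed for centriole elongation, was the other gene that fell. Its fragments were 2029 and 1531 in CT26 shGFP and shmaurka-1, and 1599 and 1118 in MC38. This gave a log2 fold change of -0.29 for CT26 (-0.38 to -0.19) and of -0.49 for MC38 (-0.60 to -0.38), and edgeR gave a common log2 fold change of -0.38 with an adjusted p of 0.027 (0.0158 to 1 over the other settings). Cep120 ran against the group it belongs to in CT26, where 10 of the 12 duplication genes were higher.

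The genes of centriole duplication were at a median of 0.13 on the log2 scale in CT26 (0.22 with FPKM) and of -0.09 in MC38. By their intervals 6 were higher and 1 lower in CT26, beside 22.1% and 21.1% of all genes, and 2 were higher and 5 lower in MC38, beside 22.7% and 22.3%. These shares are the background for the smaller groups too, in which few genes stand behind each count. Plk4, the kinase that starts duplication (ENSMUSG00000025758, chromosome 3, 40800018 to 40816883), had 992 fragments in the CT26 control and 1175 in the CT26 knockdown, against 2053 and 1724 in MC38. It was thus higher with the knockdown in CT26 and lower in MC38. By log2 fold change it was at 0.36 in CT26 (0.24 to 0.49) and at -0.22 in MC38 (-0.32 to -0.13), a difference of -0.59 (95% interval -0.74 to -0.43).

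Stil, which binds and activates Plk4 (ENSMUSG00000028718, chromosome 4, 115000158 to 115043196), had 864 and 1178 fragments in CT26 (control, then knockdown) and 1113 and 1105 in MC38. In CT26 it was highest of the group, at a log2 fold change of 0.57 (95% interval 0.44 to 0.70), and in MC38 it was at 0.02 (-0.10 to 0.14). Sass6, the protein of the cartwheel that gives the centriole its symmetry, shares its locus with Trmt13 and had 422 and 474 fragments in CT26 and 991 and 900 in MC38. It was at 0.29 on the log2 scale in CT26 (0.10 to 0.48), and in MC38 the interval of -0.24 to 0.02 included no change. Cep152, which recruits Plk4 to the centriole, had log2 fold changes of 0.19 in CT26 (0.03 to 0.36) and -0.07 in MC38 (-0.23 to 0.08).

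Cep63, the partner of Cep152, stood furthest above its control in MC38. It had 387 and 364 fragments in CT26 shGFP and shmaurka-1, and 352 and 480 in MC38. In CT26 the log2 fold change came to 0.03 (95% interval -0.18 to 0.24), and in MC38 to 0.48 (0.28 to 0.68), the highest of the 42 genes in that line. Its locus in the files also holds Anapc13, and counting by strand is not stated, so its value is uncertain. Ccp110, the cap protein that limits centriole length and holds back the cilium, was lower in MC38, from 1533 to 1156 fragments (log2 fold change -0.38, 95% interval -0.49 to -0.27), and in CT26 it had 277 and 268 fragments (0.07, -0.17 to 0.32). Cep97, the partner of Ccp110, had a log2 fold change of -0.20 in MC38 (-0.39 to -0.01), and its 57 and 52 fragments in CT26 left an interval of -0.58 to 0.56. A change of Cep97 within these bounds was thus not detectable in CT26 at this depth. Cep57 was above its control in both lines, with log2 fold changes of 0.31 (0.18 to 0.44) and 0.13 (0.02 to 0.24).

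The remaining genes of this group, Cenpj, Cep135 and Cntrob, had log2 fold changes of 0.04, 0.07 and 0.19 in CT26 and of -0.22, -0.08 and 0.09 in MC38. Among these, the interval excluded no change for Cntrob in CT26 and for Cenpj in MC38.

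To show the sequence next to the starts of the genes furthest above (Haus6 and Stil) and furthest below (Hdac6) their controls in CT26 and of the kinase Plk4, the 250 bases before the RefSeq start of each (GRCm38.p6) are given 5′ to 3′ on the strand of the gene, in lower case. Capitals mark letters of motifs linked to expression in the cell cycle, read on either strand: CCAAT, the letters bound by NF-Y, and TTTGAA or TTCGAA, the letters of the cell cycle genes homology region (CHR). The E2F letters TTTGGCGC, TTTCGCGC, TTTCCCGC and TTCCCGCC were searched too and are in none of the 4.
Plk4 (chr3:40799701-40799950, plus strand): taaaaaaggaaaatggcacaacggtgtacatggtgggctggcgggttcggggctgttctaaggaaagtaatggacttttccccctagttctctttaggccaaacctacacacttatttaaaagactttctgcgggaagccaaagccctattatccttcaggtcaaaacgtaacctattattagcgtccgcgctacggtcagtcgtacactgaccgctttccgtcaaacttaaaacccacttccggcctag
Stil (chr4:114999868-115000117, plus strand): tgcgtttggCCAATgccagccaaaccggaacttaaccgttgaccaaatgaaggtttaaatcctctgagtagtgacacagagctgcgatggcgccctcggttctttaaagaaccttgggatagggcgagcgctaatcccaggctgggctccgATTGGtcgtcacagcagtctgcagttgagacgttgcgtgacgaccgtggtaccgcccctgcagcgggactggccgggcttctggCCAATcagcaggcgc
Haus6 (chr4:86612056-86612305, minus strand): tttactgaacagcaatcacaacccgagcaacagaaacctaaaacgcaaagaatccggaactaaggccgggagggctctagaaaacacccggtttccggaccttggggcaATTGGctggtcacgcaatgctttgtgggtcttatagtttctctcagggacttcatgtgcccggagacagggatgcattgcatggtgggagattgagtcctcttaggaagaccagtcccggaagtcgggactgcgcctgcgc
Hdac6 (chrX:7947890-7948139, minus strand): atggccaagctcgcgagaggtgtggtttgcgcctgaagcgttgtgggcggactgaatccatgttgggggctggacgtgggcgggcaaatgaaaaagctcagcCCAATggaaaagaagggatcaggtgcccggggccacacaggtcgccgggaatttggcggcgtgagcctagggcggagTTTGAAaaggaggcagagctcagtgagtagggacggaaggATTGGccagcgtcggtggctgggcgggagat

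Stil held 3 CCAAT matches, Haus6 held 1, and Hdac6, which was lower, held 2 CCAAT matches and 1 of the CHR letters. Plk4 held none of the letters in these 250 bases. The search covered windows from 250 bases before to 50 after the start, the window listed at the top of each gene's entries, and 35 of the 42 genes matched by symbol. CHR letters were present in 7 of the 35 (20%), beside 19.4% of 27025 windows. CCAAT was present in 16 (45.7%), beside 37.9%, and E2F letters in 4 (11.4%), beside 3.57%. The 27025 windows were not limited to genes that passed the filter on counts, unlike the other shares of all genes given here. Of the 14 matched genes whose interval lay above 0 in CT26, 4 held CHR letters, 7 held CCAAT and 2 held E2F letters. Among the other 21 genes these numbered 3, 9 and 2. A match of letters is a description of the window and not of binding.

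The pericentriolar material and satellite genes had a median of 0.23 in CT26 and of -0.06 in MC38. By their intervals 4 were higher and 0 lower in CT26, while 0 were higher and 3 lower in MC38, with the same shares of all genes beside them. Computed from FPKM with 1 added, the CT26 median was 0.039, and in genes with a locus of their own it was 0.10. Pcnt, the scaffold that holds the pericentriolar material (ENSMUSG00000001151, chromosome 10, 76351262 to 76442786), had 2411 and 2669 fragments in CT26 shGFP and shmaurka-1, and 3608 and 3428 in MC38. This gave a log2 fold change of 0.27 for CT26 (0.19 to 0.35) and of -0.04 for MC38 (-0.11 to 0.02).

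Cdk5rap2, which activates gamma-tubulin ring complexes, had 2245 and 2444 fragments in CT26 and 3379 and 3328 in MC38. Counts put it at 0.24 on the log2 scale in CT26 (95% interval 0.16 to 0.33), but FPKM with 1 added at 0.07, and in MC38 counts gave 0.01 (-0.06 to 0.08) and FPKM 0.12. Ninl, a ninein-like protein, was highest of the group in CT26, with 461 and 519 fragments there and 1531 and 1418 in MC38. Its log2 fold changes were 0.29 (0.11 to 0.48) and -0.08 (-0.19 to 0.02).

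The genes of the centriolar satellites, granules that carry proteins to and from the centrosome, were not uniform. Pcm1, the satellite scaffold, had 2482 and 2206 fragments in CT26 and 6784 and 6158 in MC38, with log2 fold changes of -0.05 (95% interval -0.13 to 0.03) and -0.11 (-0.16 to -0.06). Cep290, a protein of the satellites and of the ciliary transition zone, was lowest of the group in CT26 at -0.17 (-0.51 to 0.17, from 165 and 135 fragments) and was -0.19 in MC38 (-0.33 to -0.05). Cep131 was lowest in MC38, from 687 to 552 fragments (log2 fold change -0.29, -0.45 to -0.12), and its 86 and 92 fragments in CT26 gave 0.22 (-0.22 to 0.66). Ofd1 was the highest in MC38 at 0.11 (-0.06 to 0.28) and was 0.22 in CT26 (0.01 to 0.43). Cep72 had an interval that included no change in both lines, with log2 fold changes of 0.25 and -0.01.

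The appendage, linker and cilium genes had the widest spread of the groups in CT26. Their log2 fold changes ran between -0.47 and 0.56 in CT26 and between -0.50 and 0.22 in MC38, with medians of -0.03 and -0.12. In the 3 genes with a locus of their own the medians were -0.17 in CT26 and 0.22 in MC38, and with FPKM the CT26 median was -0.12. Odf2, a protein of the appendages of the older centriole (ENSMUSG00000026790, chromosome 2, 29889220 to 29931746), had 837 and 1138 fragments in CT26 shGFP and shmaurka-1, and 2093 and 1892 in MC38. It was the other gene, with Plk4, whose intervals lay on opposite sides of 0 in the lines. By log2 fold change it was at 0.56 in CT26 (0.43 to 0.69) and at -0.12 in MC38 (-0.21 to -0.03), a difference of -0.68 (-0.84 to -0.52), the largest in size of the 42 genes. The direction in MC38 turned when FPKM with 1 added was used, to 0.037.

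Nek2, the kinase that dissolves the linker between centrosomes before mitosis, had 225 and 169 fragments in CT26 and 51 and 35 in MC38. In CT26 the log2 fold change came to -0.29 (95% interval -0.59 to 0.0018), and in MC38 to -0.50 (-1.18 to 0.13), and both intervals included no change. Crocc, or rootletin, the fibre of the linker and ciliary rootlet, was highest of the group in MC38 with 600 and 686 fragments (log2 fold change 0.22, 0.06 to 0.38), and its 64 and 76 fragments in CT26 gave 0.36 (-0.13 to 0.87). Cep250, the docking site of the linker, was by counts at -0.03 (-0.14 to 0.08) in CT26 and -0.04 (-0.11 to 0.03) in MC38, and by FPKM with 1 added at 0.05 and -0.23. Cep164, which marks the distal appendages from which a cilium grows, was 0.0050 in CT26 (-0.25 to 0.26) and -0.32 in MC38 (-0.45 to -0.19), where its fragments were 1099 and 863. Cep78 was -0.17 in CT26 (-0.49 to 0.15) and 0.22 in MC38 (0.07 to 0.36), which made it, with Cep63, 1 of the 2 genes for which the interval of the difference between the lines lay above 0.

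The gamma-tubulin complex genes had the narrowest range. Their log2 fold changes lay between -0.07 and 0.24 in CT26, with a median of 0.14, and ranged from -0.16 to -0.0066 in MC38, with a median of -0.02. All 7 were lower in MC38 by any amount, a direction that the deposited FPKM gave for 3 of the 7. Only 1 interval, that of Tubg1, excluded no change there. Tubg1, gamma-tubulin itself (ENSMUSG00000035198, chromosome 11, 101119937 to 101126419), had 960 and 844 fragments in CT26 and 2931 and 2573 in MC38. By counts it was the lowest of the group in each line, at -0.07 (95% interval -0.20 to 0.07) and -0.16 (-0.24 to -0.08). By the deposited FPKM Tubg1 was at 0.012 in CT26, above Tubgcp5 at -0.049. Nedd1, the adaptor that brings the ring complexes to centrosome and spindle and is a substrate of mitotic kinases, had 1129 and 1221 fragments in CT26 and 2271 and 2210 in MC38. This gave a log2 fold change of 0.23 for CT26 (0.12 to 0.35) and of -0.01 for MC38 (-0.10 to 0.08).

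Among the structural subunits of the ring complex, Tubgcp2 was highest in CT26, with 965 and 1052 fragments and a log2 fold change of 0.24 (95% interval 0.12 to 0.37), and was -0.02 in MC38. Tubgcp3, its partner in the small complex, was 0.17 in CT26 (0.08 to 0.25) and -0.02 in MC38. Tubgcp4, at 0.14 in CT26 (0.04 to 0.24), was highest in MC38 at -0.0066. Tubgcp5 and Tubgcp6, which with Tubgcp4 are specific to the large ring complex, were -0.03 and 0.06 in CT26 and -0.12 and -0.10 in MC38, and their intervals included no change. Tubgcp2, Tubgcp4 and Tubgcp6 share loci in the files with other expressed genes (Zfp511, Trp53bp1 and Selenoo the highest) and are uncertain. The 2 genes of the group with a locus of their own, Tubg1 and Tubgcp5, were both slightly below 0 in CT26 by counts, and their intervals included no change.

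Augmin is a complex of 8 subunits. By any amount 7 of its genes were higher and 1, Haus1, lower in CT26, and 4 were higher and 4 lower in MC38, while by their intervals 2 were higher and 0 lower in CT26 and 2 were higher and 2 lower in MC38. On the log2 scale their median stood at 0.07 for CT26 (0.12 with FPKM, 0.043 with total-count scaling) and 0.0058 for MC38, and the MC38 median was below 0 with total-count scaling, with DESeq2 size factors and with the deposited FPKM. Apart from Haus6, Haus3 alone had an interval above 0 in CT26, at 0.24 (95% interval 0.11 to 0.38, from 868 and 944 fragments), and it was -0.02 in MC38. In MC38 Haus7 was higher, with 697 and 776 fragments and a log2 fold change of 0.18 (0.03 to 0.33). Haus2 was lower, with 906 and 748 fragments (-0.25, -0.39 to -0.11), and Haus8 was lowest, with 1130 and 918 (-0.27, -0.40 to -0.14). In CT26 Haus2, Haus7 and Haus8 had log2 fold changes of 0.02, 0.06 and 0.03. Haus1 was lowest in CT26, at -0.06 (-0.37 to 0.24) from 193 and 170 fragments, and was 0.11 in MC38 (-0.03 to 0.24). Haus4 and Haus5 had intervals that included no change in both lines. Haus2, Haus5 and Haus8 share loci with other expressed genes, for Haus5 and Haus8 far more abundant ones (Rbm42 and Myo9b), and are uncertain.

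For many of the genes the level was further apart between the lines than between the hairpins, which was not tested. By FPKM, the 42 genes ranged from 0.348 (Crocc) to 39.8 (Cdk5rap2) in CT26 shGFP, with a median of 8.0, and from 0.572 (Nek2) to 45.2 (Pcm1) in MC38 shGFP, with a median of 12.1. FPKM per count, nearly constant for a gene counted alike in a pair of libraries, moved over 1.3-fold (a limit set after the values were seen) in CT26 for 2 of the 42 genes, Cep97 (1.49 times) and Haus8 (1.48 times), beside 3.1% of all genes, and in MC38 for 0, beside 1.82%. By FPKM these 2 genes had log2 ratios of 0.58 and 0.61 in CT26, and by counts -0.01 and 0.03. In the shmaurka-1 libraries the median FPKM values were 9.26 in CT26 and 11.3 in MC38. Pcm1, Cdk5rap2, Tubg1, Nedd1 and Haus1 were the most abundant per length in MC38 shGFP, at 45.2, 36.7, 45.0, 40.1 and 41.2 FPKM. In CT26 shGFP the same genes were at 20.9, 39.8, 17.3, 25.7 and 11.6 FPKM.

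**Figure D3:**
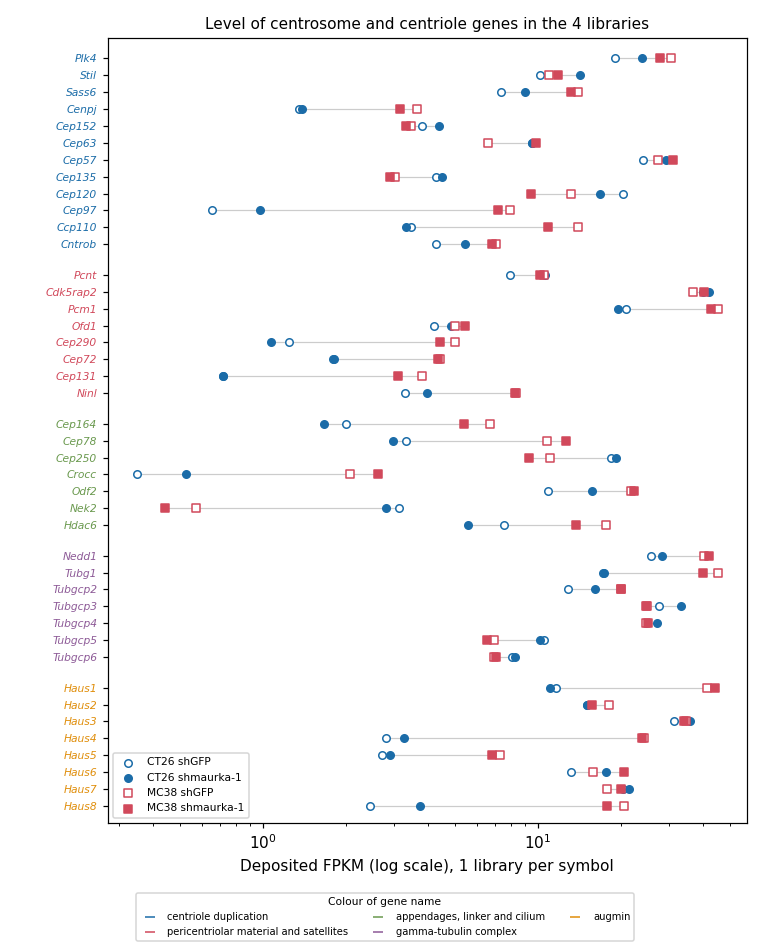
The deposited FPKM of each gene (log axis) is plotted for the 4 libraries, circles for CT26 and squares for MC38, open for shGFP and filled for shmaurka-1, 1 library per symbol, with gene names coloured by group. For Haus4, Haus8, Crocc, Cep97, Cep131, Cep290 and Nek2 the circles and squares lie far apart, while open and filled symbols of a line lie close together for most genes.

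Taking the TMM-scaled counts of MC38 over CT26 within each hairpin, a comparison added after the values were seen, 17 of the 42 genes were over 2-fold higher in MC38 in both pairs, beside 15.6% of all genes, and 1, Nek2, was over 2-fold lower in both, beside 12.6%. The median log2 ratio was 0.79 with shGFP and 0.44 with shmaurka-1, against -0.0051 and 0.0090 over all genes. Haus4 had the highest ratio, with 115 and 119 fragments in CT26 against 1198 and 1161 in MC38, log2 ratios of 3.13 and 2.95. Crocc followed at 2.97 and 2.83, Haus8 at 2.92 and 2.62, Cep97 at 2.88 and 2.69, Cep131 at 2.75 and 2.24 and Cep290 at 2.29 and 2.26. Haus8 and Cep290 share loci with other expressed genes, so their ratios are uncertain. Nek2 had log2 ratios of -2.35 and -2.56. The ratios were not equal in the 2 pairs, and for Plk4 they were 0.81 and 0.22, for Odf2 1.08 and 0.40. Apart from the added count, this inequality is the MC38 minus CT26 difference given above and not a separate observation. Line, mouse strain of origin and medium cannot be told apart.

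By group, the genes over 2-fold higher in MC38 numbered 3 of 12 for centriole duplication, 5 of 8 for pericentriolar material and satellites, 4 of 7 for appendages, linker and cilium, 1 of 7 for the gamma-tubulin complex and 4 of 8 for augmin. Within augmin, Haus1, Haus4, Haus5 and Haus8 were in this set, while the log2 ratios of Haus2, Haus3, Haus6 and Haus7 in the shGFP pair were 0.34, 0.21, 0.49 and -0.16. The ratios of Haus2, Haus5 and Haus8, which share loci with other expressed genes, are uncertain. Haus1, Haus4 and Haus7, which have loci of their own, were at 1.86, 3.13 and -0.16 in the shGFP pair. The subunits of this complex thus did not share a ratio between the lines.

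**Figure D4:**
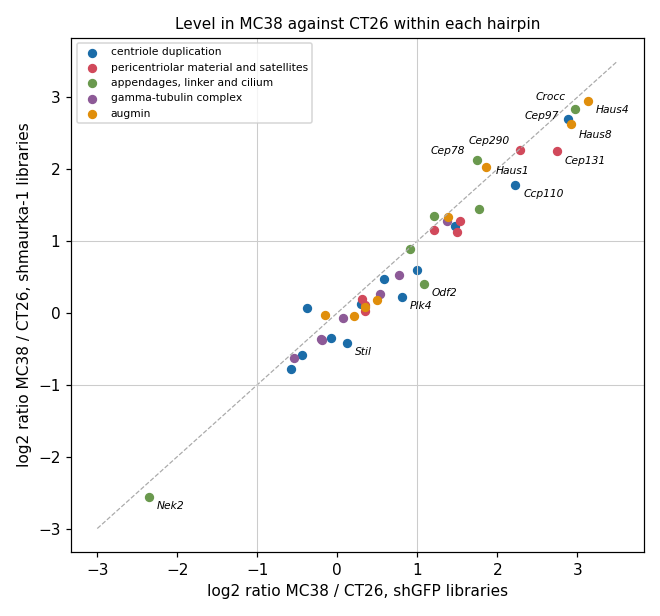
The log2 ratio of MC38 to CT26 in the shGFP libraries (horizontal) is plotted against that in the shmaurka-1 libraries (vertical) for the 42 genes, coloured by group, with the line of equal ratios dashed and grey lines at 2-fold. Most points lie just below the dashed line, Plk4, Odf2 and Stil furthest below, and Nek2 lies alone at the lower left. The offset from the dashed line restates the difference between the lines in log2 fold change.

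Other genes of the same structures were read from a list of 41, of which 40 passed the filter. Their medians were close to those above, 0.14 in CT26 and -0.07 in MC38, with 15 intervals above and 3 below 0 in CT26, beside 22.1% and 21.1% of all genes, and 2 above and 11 below in MC38, beside 22.7% and 22.3%. Above 1.5-fold, beside 3.2% of all genes in CT26, there was 1 of the 40 in CT26, Cep70, and 0 in MC38. Cep70, named after its value was seen, had 67 and 98 fragments in CT26 (log2 fold change 0.66, 95% interval 0.21 to 1.14). In MC38 it was at -0.33 (-0.66 to -0.01). edgeR's test of the common effect called 0 of the 40, with 3 at an unadjusted p under 0.05, beside 12.3% of all genes. DESeq2 also called 0. The 3 genes with the largest mean change were Cep19, Ssx2ip and Cep192. Cep192, the scaffold on which Aurora-A and Plk4 are recruited to the centrosome, had 1536 and 2085 fragments in CT26, a log2 fold change of 0.56 (95% interval 0.47 to 0.66), and 3011 and 3009 in MC38 (0.03, -0.05 to 0.10). Ssx2ip was above its control in both lines, at 0.51 (0.35 to 0.67) and 0.21 (0.12 to 0.29). Cep19 had 513 and 322 fragments in MC38 (-0.64, -0.85 to -0.44), and in CT26 it was -0.18 (-0.77 to 0.40).

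Many genes of mitosis are transcribed mostly in G2 and M, so lists of cell cycle genes were read beside these. In CT26 all 26 G2/M genes were higher with shmaurka-1, 21 of them above 1.5-fold (beside 49.1% and 3.2% of all genes), with a median log2 fold change of 0.70, and 21 of 25 S phase genes were higher with a median of 0.11. In MC38 the medians were -0.09 for the G2/M genes, 19 of 26 of which were lower (beside 50.1% of all genes), and 0.09 for the S phase genes. The centrosome and centriole medians of 0.11 and -0.06 have the same signs as the G2/M medians and are smaller in CT26, where the highest of the 42 genes, Haus6 at 0.58, lies under the median G2/M gene. Nek2, itself a kinase of G2 and M, was at -0.29 in CT26 with an interval that reached 0. edgeR's common test called 10 of the G2/M genes and 2 of the S phase genes higher, and 0 of either lower, beside 1.67% and 1.12% of all genes, and DESeq2 called 0. Of the 10 G2/M genes called, 4 (Aurkb, Kif20a, Mki67 and Top2a) were below their control in MC38, at -0.14, -0.13, -0.06 and -0.09, so the common call does not show a like change in both lines. The part of a different share of cells in G2 or M in these changes was not tested. In libraries of whole cultures, more cells of a phase and more RNA per cell cannot be told apart.

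**Figure D5:**
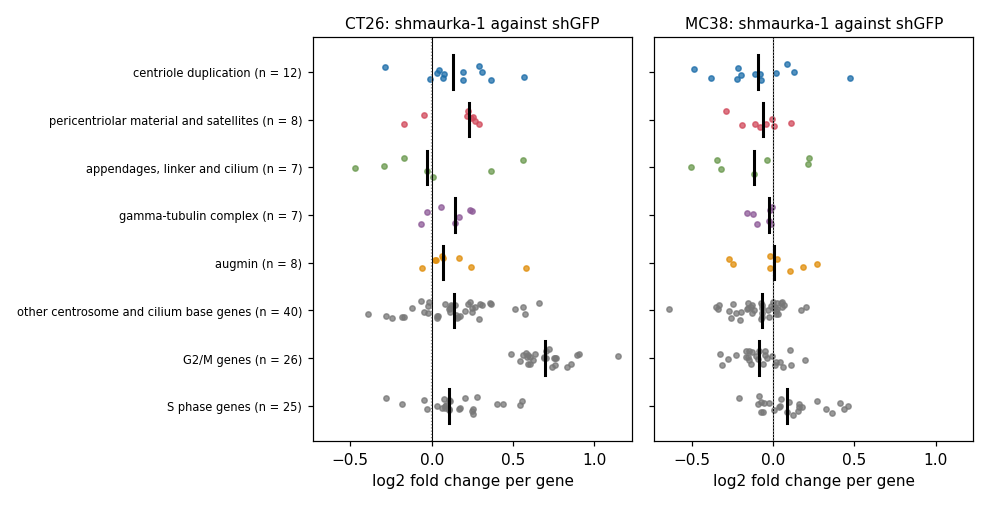
Each point is the log2 fold change of a gene (shmaurka-1 against shGFP) in CT26 on the left and MC38 on the right, by list, with a black bar at the median of the list and a dotted line at the median of all genes that passed the filter. The G2/M genes, median 0.70 in CT26, lie mostly to the right of the 5 centrosome groups there, and all lists lie near 0 in MC38.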

How the data were processed

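RNA from 4 cultures was sequenced with a strand-specific kit, 1 library each, 48 h after seeding. The submitters' processing notes name Trimmomatic 0.36, HISAT2, Cufflinks 2.2.1, Cuffdiff and GRCm39. The deposited coordinates, however, overlapped the gene of the same name for 99.8% of 19356 genes in GRCm38 and 9.23% in GRCm39, so they are given as GRCm38. For each gene and library the deposited tables hold estimated counts and FPKM values made by the authors. The estimated counts carry a scale factor. From 97.1% to 97.7% of nonzero values were whole multiples, within 0.05, of 1 step per library (0.885 to 1.17), and dividing by it gave fragments.

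Fold changes are ratios of deposited counts scaled by TMM in edgeR 4.0.16 (R 4.3.3), with 1 count added. The 95% intervals are exact binomial (within a line) or exact odds ratio (between lines) intervals on fragments, with a normal approximation in the shares over all genes given for the difference between lines. edgeR's quasi-likelihood test and DESeq2 1.42.0 were run on counts rounded to whole numbers, with 1 library per condition. Python 3.11.15, scipy 1.17.1 and pandas 2.3.3 were used otherwise. The members, groups and lists were chosen with earlier results of these data known. Values are given in full for genes past a threshold or called by the common test, the highest and lowest of each group in each line, and Plk4, Tubg1, Nedd1, Pcnt, Cdk5rap2 and Hdac6, with a few others added after their values were seen. Alternatives changed the scaling, the added count, the filter, the values (FPKM), the lower threshold and the model. Of the 42 genes 23 share a locus with other genes in the files, and for 12 another gene there had over 5% of the member's fragments in some library. Whether counting used the strand is not given in the sources used here. Promoter windows are from RefSeq (GRCm38.p6).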

Additional observations from a re-analysis of the deposited data

Results flagged for a closer look

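Plk4 and Odf2 are listed because their counting intervals lay above no change in CT26 and below it in MC38. The difference, MC38 minus CT26, was -0.59 for Plk4 and -0.68 for Odf2 on the log2 scale. Such a pattern was found in 2 of the 42 genes, beside 3.84% of all genes compared, and the reverse pattern in 0, beside 3.6%. A count of 2 is near the background share and is no result about these genes as a set. Each condition has 1 library, so the difference was not tested across samples. For Odf2 the MC38 value was 0.037 with the deposited FPKM, while for Plk4 it was -0.13.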

How the results depend on the processing

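Under the alternatives 392 values were computed, and 367 of them kept near the reported value (by the counting interval for a gene, the binomial interval for a median, 1.5 times for a count). For groups of 7 or 8 genes the interval of a median spans their whole range, so it bounds little, and medians changed sign within it. In genes with a locus of their own the appendage median in MC38 was 0.22 and the gamma-tubulin median in CT26 -0.047, and the augmin median in MC38 was -0.0031 with DESeq2 size factors, -0.016 with total counts and -0.022 with FPKM. The pericentriolar median in MC38 was -0.029 with FPKM, the gamma-tubulin median in MC38 -0.044 with total counts and -0.14 in genes with a locus of their own, the augmin median in MC38 0.11 in such genes, and the appendage median in CT26 -0.050 with total counts and -0.011 at a mean of at least 50 counts. No centrosome gene passed a threshold within a line under any alternative, except that with FPKM and a pseudocount of 0.1, 1 gene, Haus8, was above 1.5-fold in CT26 (1.51). The plain ratio of deposited FPKM, with nothing added, was not among the alternatives. It was above 1.5-fold in CT26 for Haus8 and Crocc, at log2 ratios of 0.61 and 0.59. With FPKM and a pseudocount of 1 the gamma-tubulin median in MC38 became 0.0016 and Odf2 in MC38 turned to 0.037, and 9 further gene values left their counting interval. The cause was not tested.

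The common effect was the least stable result. edgeR called 199 genes higher and 134 lower, 1 and 2 of them among the 42. DESeq2 called 17 and 12, and 0 and 0 of the 42. With a mean of at least 50 counts edgeR called 63 and 38, and 0 and 0 of the 41 tested, with 4 of these (9.76%) and 11.7% of all genes at an unadjusted p under 0.05. With no filter 0 of the 42 were called lower, at adjusted p of 0.0718 for Cep120 and 0.0824 for Hdac6, and Haus6 was still called. Without the replicate block edgeR called 0 genes higher and 0 lower, and 0 of the 42 in either direction, with 13 genes at an unadjusted p under 0.05 and none of the 42 among them. Scaling by total counts made 49.1% of calls higher ones, and TMM 59.8%. The block pairs the 2 libraries of a line, and leaving out a replicate was not possible with 1 library per condition. Depth limits Cep97, Crocc, Cep131, Cep72, Haus4 and Haus8 most in CT26, and Nek2 in MC38. Haus5, Cenpj, Cep290 and Cep78 had from 135 to 181 fragments in the CT26 libraries, and depth limits these too.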
